A study of Mus musculus with 2 samples.

Results

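Prostaglandins are lipid signals made from arachidonic acid, and 10 genes of their synthesis and breakdown were followed here across the cells of the mouse dorsal root ganglion, the cluster of sensory neuron cell bodies and glia beside the spinal cord. The 10 genes were taken by symbol from the 32285 genes of the count tables, and all 10 were present in both libraries. They were Ptgs1 and Ptgs2, which encode the cyclooxygenases COX-1 and COX-2, the PGE2 synthases Ptges, Ptges2 and Ptges3, the PGD2 synthases Ptgds and Hpgds, the prostacyclin synthase Ptgis, the thromboxane synthase Tbxas1, and Hpgd, which starts the breakdown of PGE2. The rule is the list of symbols and holds no threshold on a measured value. The question was which cells of the ganglion hold the RNA needed to make or degrade PGE2 at postnatal day 4.

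Arachidonic acid is freed from membrane lipids by phospholipases and other lipases, and a cyclooxygenase turns it into the unstable PGH2, from which separate terminal synthases make each prostaglandin. COX-1 is in general produced steadily and COX-2 on stimulation. PGE2 is known for sensitising sensory neurons through its receptors, and the dehydrogenase encoded by Hpgd oxidises it to an inactive product. Ptges3 encodes p23, a small cochaperone of HSP90 that has also been described as a cytosolic PGE2 synthase.

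Single-cell 3′ RNA libraries were prepared from ganglia of all axial levels after enzymatic dissociation, and there was 1 library per genotype. The flox library came from mice with the genotype Ptges3 flox/flox. The cKO library came from mice with the genotype Dhh CRE+, Ptges3 flox/flox, so both groups carried the floxed alleles and differed in the Cre, which is driven by desert hedgehog sequence and acts in the Schwann cell lineage. The labels give neither the floxed exons nor the number of mice behind each library, and the counted 3′ ends can come from a recombined allele as well. No difference between the libraries therefore has a replicate check, no test was made, and all intervals are exact 95% intervals that cover counting error only.

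Filtering left 8107 cells in the flox and 7866 in the cKO library, at a median of 6778 and 4102 UMIs (unique molecular identifiers, each standing for a single captured RNA molecule). Cells were assigned to classes by sets of marker genes, and each class name means a cell that resembles that type. The classes used here held 3320 flox and 2230 cKO Schwann lineage glia, 1564 and 3043 neurons, 1274 and 1268 fibroblasts, 427 and 167 macrophages, 166 and 155 endothelial cells, and 115 and 156 mural cells, the pericytes and smooth muscle of vessels. The median score in glia was 0.397 for the glial markers against 0.132 for fibroblast markers. The gate itself requires such a gap, so it is no check on the classes. Of the glial cells, 195 flox and 180 cKO cells lay near the score limit. A further 621 flox and 799 cKO cells passed no gate.

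The libraries differed in ways that bear on every comparison. Cells of central nervous system type, 390 of oligodendrocyte lineage and 136 of astrocyte or ependymal type, were found in the flox library and none in the cKO library, where a count of 0 has an exact upper limit of 0.0469% of cells. Neurons had a median of 45713.5 UMIs in the flox against 8093 in the cKO library, glia 5986.5 and 3350, and fibroblasts 6727.5 and 4426.5. The libraries shared 23 cell barcodes, 15 of them among kept cells. Levels below are UMIs of a gene per 1000000 UMIs of the class (CPM), shares of cells with a UMI are given also after thinning each cell to 1000 UMIs, and every ratio is the log2 of cKO over flox.

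The promoters of 9 of the 10 genes were matched in RefSeq (GRCm38.p6), and 3 are printed 5′ to 3′ on the gene's strand because their genes had the most unlike distributions over the cell classes. Ptges3 was found in every class, Ptges mainly in fibroblasts, and Ptgs1 mainly in macrophages, endothelial cells and some fibroblasts. Capitals mark the letters GGGCGG or their reverse complement, the core of the GC box. The Ptges3 print stops at 222 bases, where its GENCODE M21 span begins, and the counts below are for the full window.
Ptges3 (chr10:128058732-128058953, forward strand): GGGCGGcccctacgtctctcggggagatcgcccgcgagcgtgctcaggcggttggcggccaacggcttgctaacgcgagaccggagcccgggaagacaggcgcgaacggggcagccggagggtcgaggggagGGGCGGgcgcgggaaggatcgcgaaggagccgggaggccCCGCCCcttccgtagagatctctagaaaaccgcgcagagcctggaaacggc
Ptges (chr2:30903298-30903547, reverse strand): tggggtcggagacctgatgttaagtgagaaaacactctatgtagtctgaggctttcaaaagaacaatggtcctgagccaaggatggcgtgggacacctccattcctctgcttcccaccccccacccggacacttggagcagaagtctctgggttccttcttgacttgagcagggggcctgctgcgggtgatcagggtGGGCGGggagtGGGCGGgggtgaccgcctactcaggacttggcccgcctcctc
Ptgs1 (chr2:36230176-36230425, forward strand): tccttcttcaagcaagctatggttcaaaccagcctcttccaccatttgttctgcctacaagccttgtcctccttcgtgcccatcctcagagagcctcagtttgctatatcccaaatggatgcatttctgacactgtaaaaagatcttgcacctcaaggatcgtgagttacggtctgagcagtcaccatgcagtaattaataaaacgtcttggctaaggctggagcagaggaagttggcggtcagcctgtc

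In the 250 bases before the RefSeq start, searched on both strands, Ptges3 held 3 GGGCGG matches, Ptges 2 and Ptgs1 0. Over all 32851 promoter windows of that length 32.7% held the motif and 12.4% held TATAAA, which none of these 3 genes had. The Ptges3 window was 73.2% G and C with 38 CpG dinucleotides, more than 98.1% of promoters, whereas the median promoter had 52.4% and 6. Ptges had 8 CpG and Ptgs1 had 5, near that median, and Ptgds and Hpgds had 2 and 3. These are descriptions of the sequence, and the matches are not shown to be binding sites. The Ptges window lies inside the gene span of GENCODE M21 (chr2:30889471-30929863), which starts further upstream.

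Ptges3 (ENSMUSG00000071072, GRCm38 chr10:128058954-128077272, forward strand) was present in every class, and it was lower in the cKO library in Schwann lineage glia and in the ungated cells (292.2 and 163.1 CPM), whose highest median score was glial. Glia had 251 CPM (244.6 to 257.6) in the flox against 128.9 CPM (121.3 to 136.8) in the cKO library, with a log2 ratio of -0.96 (-1.06 to -0.87) and so 0.513 of the flox level. The intervals of the libraries do not overlap. A Ptges3 UMI was found in 72.8% of flox and 35.1% of cKO glia, and in 22.7% and 11.3% after thinning. No class here lacks Ptges3, so no class gives a background share for it, and the erythroid cells had 45.2% and 40.5% at median depths of 4356 and 2619 UMIs.

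The glial difference was seen in all 5 glial sub-gates. Myelinating Schwann cells, which wrap single axons, had 228.4 and 110.5 CPM, and satellite glia, which wrap neuron cell bodies, had 234.5 and 133.6 CPM. Cycling glia had the highest flox level, 329.8 CPM, and 157.3 CPM in the cKO library. The ratios ran from -1.19 in glia of no sub-gate to -0.62 in the 93 flox and 100 cKO immature Schwann cells, where the levels were 269.7 and 175.1 CPM. Both libraries thus kept Ptges3 UMIs in each kind of glia.

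Glia of like depth gave the same picture. Among glia with 5000 to 10000 UMIs, the 1476 flox cells had 255.7 CPM (246.1 to 265.6) and the 435 cKO cells 130.5 CPM (117.5 to 144.5), with a UMI in 80.2% and 54.5% of cells. Between 1000 and 3000 UMIs the levels were 219.9 and 132.4 CPM. If every cKO glial cell had the same Ptges3 rate per UMI, 36.7% of cells would hold a UMI, and 35.1% did. In the flox library 74.9% would, and 72.8% did, so the share of positive cells was close to that of a single rate in both libraries, and the counts alone do not divide the cKO glia into cells with and without Ptges3. The highest single glial cell had 16 UMIs in the flox against 6 in the cKO library.

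Ptges3 was higher in the cKO library in neurons and in the other main classes. Neurons had 275.1 CPM (271.2 to 279.1) in the flox against 395 CPM (389.4 to 400.7) in the cKO library, with a ratio of 0.52 (0.49 to 0.55), with a UMI in 90.5% and 85.4% of cells and in 22.95% and 35.1% after thinning. The unthinned shares run against the levels because flox neurons are deeper, so no order is read from them. Ratios were 0.33 in fibroblasts (181 and 227.1 CPM), 0.29 in macrophages (197.8 and 241.4), 0.63 in endothelial cells (179.7 and 277.9) and 0.57 in mural cells (242.4 and 360.4).

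All 7 neuron groups with at least 50 cells in a library showed the higher level. Mrgpra3 neurons, which respond to itch-inducing compounds, had 264.7 and 467.8 CPM, a ratio of 0.82, and neurons that express Mrgprd, a marker of non-peptidergic nociceptors, had 281.8 and 412.4 CPM. C-LTMRs, unmyelinated touch receptors, had 317 and 416.2 CPM, and myelinated low-threshold mechanoreceptors had the lowest levels of both libraries, 237.6 and 321.6 CPM. Median depth differed most in the Calca neurofilament neurons, with 38 flox cells at 82000.5 and 130 cKO cells at 3925 UMIs, and these had 246 and 426.4 CPM. Among neurons of at least 30000 UMIs the levels were 279.4 and 383.3 CPM. Neurons under 10000 UMIs, 16.5% of flox and 55.7% of cKO neurons, had 194 and 440.4 CPM. The flox level had no single trend with depth, since flox neurons of 1000 to 3000 UMIs had 330.3 CPM (258.9 to 415.4) and those of 5000 to 10000 UMIs 148.5 CPM. The part of depth in the difference was not tested.

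Among fibroblasts the higher level was clearest in endoneurial cells, with 182.6 CPM (164.1 to 202.5) and 281.9 CPM (258 to 307.3), a ratio of 0.63 (0.43 to 0.83). Epineurial fibroblasts had 176.3 and 210.1 CPM, a ratio of 0.25 (0.07 to 0.43). The intervals of the ratio included 0 in meningeal fibroblasts (0.08, -0.33 to 0.47), perineurial or capsule cells (0.24, -0.18 to 0.64) and fibroblasts of no sub-gate (0.12, -0.08 to 0.31). In the macrophage class the microglia-gated cells had 202.3 and 306.7 CPM and the others 195.6 and 221.6 CPM.

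By order of level, the flox library ran from neurons through glia, mural cells, macrophages and fibroblasts to endothelial cells, and after the neurons no neighbours had separate intervals. In the cKO library neurons and mural cells led with overlapping intervals, and glia came last, apart from the next class, fibroblasts. Neurons held 62.2% of all flox Ptges3 UMIs and 84.4% of those of the cKO library, and glia held 19.3% and 4.84%. The flox-only central classes had 300.1 CPM in oligodendrocyte lineage cells and 208.8 CPM in astrocyte or ependymal cells.

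**Figure D1:**
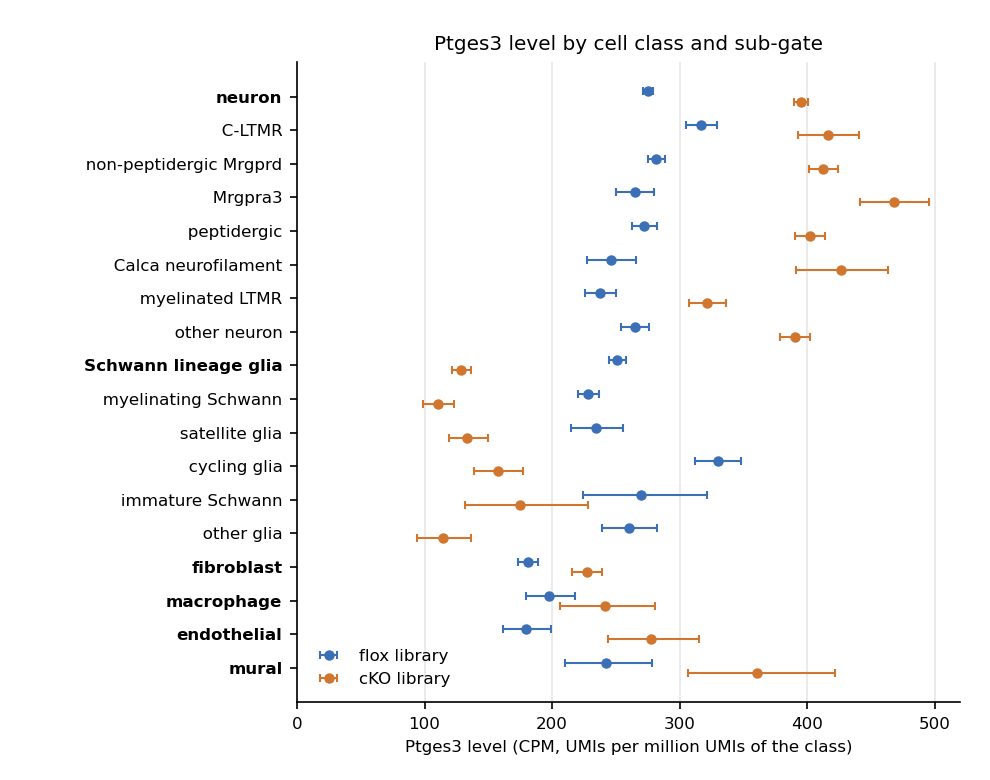
Ptges3 level in CPM (horizontal axis) for the 6 main classes, in bold, and for neuron and glial sub-gates, with exact 95% intervals for counting error, flox in blue and cKO in orange. Each glial row has its cKO point to the left of its flox point, with glia overall at 251 and 128.9 CPM, and each other row has it to the right.

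Ptges (ENSMUSG00000050737, chr2:30889471-30929863, reverse strand), which encodes the microsomal and inducible PGE2 synthase, was mainly a fibroblast gene. Fibroblasts had 36.9 CPM (33.4 to 40.6) in the flox against 51.3 CPM (45.9 to 57.2) in the cKO library, with a ratio of 0.48, and held 72.8% and 70.1% of all Ptges UMIs. Within them endoneurial fibroblasts, which lie between the nerve fibres, had the highest levels, 73.7 and 93.2 CPM, with a UMI in 39.5% and 36.6% of cells. Perineurial or capsule cells had 38.7 and 55.1 CPM, meningeal fibroblasts 29.0 and 49.4, and epineurial fibroblasts of the outer sheath 24.0 and 21.7 CPM.

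Ptges was sparse in glia and neurons. Glia had 33 UMIs in the flox against 52 in the cKO library, which is 1.44 and 6.16 CPM and a ratio of 2.10 (1.44 to 2.77), and 0.934% and 1.88% of glia held a UMI. For comparison, 0 of the 390 flox oligodendrocyte lineage cells, at a median of 6876 UMIs, and 4.09% and 2.23% of neurons held one. Most of the glial signal lay in satellite glia, where 18 of 512 flox and 30 of 724 cKO cells (3.52% and 4.14%) had a UMI and the levels were 8.44 and 14.6 CPM. The ratio within satellite glia was 0.79, with an interval from -0.07 to 1.68 that includes 0. Satellite glia were 512 of 3320 flox but 724 of 2230 cKO glia, and the part of this in the glial ratio was not tested. Myelinating Schwann cells held 4 and 13 UMIs, at 0.288 and 4.15 CPM. Their ratio was 3.85 (2.16 to 5.92), an interval that excludes 0, on few UMIs. Fibroblast marker RNA was lower in the satellite glia with a Ptges UMI (2030.4 and 1353 CPM) than in those without (4267.3 and 2966 CPM). In flox glia Col1a1, Col1a2 and Col3a1 stood at 831, 1698.3 and 1583.3 CPM, whereas Dcn and Lum had 10.8 and 3.49 CPM. The list thus follows collagen RNA in glia, and it cannot tell whether the Ptges UMIs came from fibroblasts.

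Neurons held 67 Ptges UMIs in the flox and 71 in the cKO library. They were most frequent in myelinated low-threshold mechanoreceptors, where 14 of 121 flox cells (11.6%) and 13 of 291 cKO cells (4.47%) had a UMI and the levels were 2.14 and 2.29 CPM. In Mrgprd neurons, of similar flox depth, 4 of 470 (0.851%) and 5 of 393 (1.27%) had a UMI, at 0.166 and 0.399 CPM. The intervals of these groups do not overlap in the flox library (1.17 to 3.59 against 0.0451 to 0.424 CPM). All neuronal levels were far below those of fibroblasts.

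Ptges2 (ENSMUSG00000026820, chr2:32395896-32405772, forward strand), a membrane-associated PGE2 synthase also known to bind heme, was broadly present and highest in neurons. Neurons had 51.1 CPM (49.4 to 52.8) and 45.8 CPM (43.9 to 47.8), a ratio of -0.16 (-0.23 to -0.08), and held 73.8% and 84.4% of its UMIs. A UMI was found in 74.6% of flox and 38.8% of cKO neurons but in 3.96% and 4.40% after thinning, and the thinned ratio was 0.16 with an interval from -0.28 to 0.61 that includes 0. The direction in neurons was therefore not settled. Myelinated low-threshold mechanoreceptors had 71.2 and 61.8 CPM and C-LTMRs 62.5 and 63.1 CPM, above peptidergic nociceptors at 42.9 and 41.0 CPM. Glia had 29.5 and 25.5 CPM, a ratio of -0.21 (-0.44 to 0.01). Among the main classes they came next in the flox library. In the cKO library mural cells, at 27.6 CPM (14.2 to 48.1), stood between neurons and glia, with an interval that overlaps both.

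The cyclooxygenases, which every route to PGE2 through PGH2 requires, were nearly undetected in glia and neurons. Ptgs1 (ENSMUSG00000047250, chr2:36230426-36252272, forward strand) gave 6 UMIs in 3320 flox glia and 1 in 2230 cKO glia, and 8 and 16 UMIs in the neurons, although neurons were the deepest cells. Its main class was the macrophages, with 103.9 CPM (90.6 to 118.7) and 75.7 CPM (56.7 to 99.0), a ratio of -0.46 (-0.92 to -0.02). A UMI was found in 33.5% of flox and 21.6% of cKO macrophages, and in 10.8% and 5.99% after thinning, at median depths of 4543 and 3724 UMIs, against 0.512% and 0.427% of the deeper neurons. The macrophages that passed the microglia sub-gate, 132 flox and 29 cKO cells, had 155 and 98.2 CPM. The other macrophages had 78.5 and 68.9 CPM, a ratio of -0.19 (-0.77 to 0.36) whose interval includes 0. A sole ungated flox cell held 24 Ptgs1 UMIs.

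Endothelial cells were the next class for Ptgs1, with 33.5 and 41.2 CPM and a UMI in 22.9% and 18.7% of cells. Their cKO interval (28.8 to 57.0 CPM) overlaps that of the cKO macrophages. Fibroblasts had 13.8 and 5.76 CPM, a ratio of -1.26 (-1.82 to -0.73), and the difference followed the meningeal and other fibroblasts. Meningeal fibroblasts held 41 Ptgs1 UMIs in 216 flox cells and 0 in the 50 cKO cells. A floor of 3 UMIs in the cKO library would be 1.97-fold below the flox level, and the upper limit of the ratio was -0.62. Epineurial fibroblasts had 23.4 and 15.5 CPM. Meningeal marker genes stood at 756.6 and 403.4 CPM over all fibroblasts, and their part in the Ptgs1 difference was not tested. Macrophages, fibroblasts and endothelial cells together held most of the Ptgs1 UMIs, at 43.7%, 31.5% and 13.6% in the flox against 34.4%, 24.0% and 23.4% in the cKO library.

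Ptgs2 (ENSMUSG00000032487, chr1:150100031-150108227, forward strand) was found in mural cells, fibroblasts and macrophages and was lower in the cKO library in all 3. Mural cells had 121.8 CPM (99.3 to 147.9), 102 UMIs, in the flox library and 27.6 CPM (14.2 to 48.1), 12 UMIs, in the cKO library, with a ratio of -2.14 (-3.14 to -1.28). A UMI was found in 22.6% and 3.21% of mural cells, and in 4.35% and 1.92% after thinning, and the top 5 flox cells held 50% of the class's UMIs. Macrophages had 49 UMIs in the flox against 3 in the cKO library (23.4 and 4.29 CPM), a ratio of -2.45 (-4.77 to -0.81). Endothelial cells had 32 UMIs, 15.8 CPM, and 0 UMIs. A floor of 3 UMIs in the cKO library would be 4.59-fold below the flox level, and the upper limit of the ratio was -1.82. Fibroblasts had 13.5 and 8.25 CPM, a ratio of -0.71 (-1.19 to -0.25). Epineurial fibroblasts did not share that direction, with 8.19 CPM (5.44 to 11.8) and 12.3 CPM (8 to 17.95), whereas endoneurial fibroblasts had 6.65 and 1.10 CPM, from 13 and 2 UMIs. Meningeal fibroblasts had 20.05 and 9.26 CPM, from 45 and 3 UMIs, and the interval of that ratio (-3.45 to 0.53) includes 0.

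Glia held 5 and 2 Ptgs2 UMIs and neurons 5 and 11, so in neither class could a difference be read. Other values also differed between the libraries. Immediate early genes, a list chosen after the values of the members were seen, were lower in the cKO library in mural cells (8200.9 and 4481.1 CPM), macrophages (5520.8 and 2130.2), endothelial cells (8715 and 3610) and fibroblasts (8444.7 and 4938.7), but also in glia (5159.6 and 2944.6), and higher in neurons (486.9 and 628.9). Among fibroblasts they stood at 9554.2 and 1651.3 CPM in endoneurial and at 6702.5 and 6346.4 CPM in epineurial cells. In meningeal fibroblasts the list stood at 10393.9 and 8793.4 CPM. Its gene Atf3 was higher in the cKO library in mural cells (1038.8 and 1092.7 CPM), fibroblasts (593.3 and 685.7) and glia (265.6 and 389.4). Macrophages (1063.4 and 857.2) and endothelial cells (901.9 and 834.7) had lower Atf3. Of the mural cells, 56.5% of flox and 26.3% of cKO cells held more smooth muscle than pericyte marker UMIs, and the smooth muscle list stood at 25817 and 8916.4 CPM. Within the smooth-muscle-led cells Ptgs2 was at 143.2 CPM (115 to 176.2) and 66.6 CPM (31.9 to 122.4). The other mural cells had 60.2 CPM (32.0 to 102.9) and 7.01 CPM (0.849 to 25.3), from 13 and 2 UMIs, so both parts were lower in the cKO library. The part of the early genes and of the mural make-up in the Ptgs2 difference was not tested.

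Cells that held RNA of a cyclooxygenase and of a PGE2 synthase at once were mainly macrophages, endothelial cells, mural cells and fibroblasts. A Ptgs1 or Ptgs2 UMI was found in 37.2% of flox and 21.6% of cKO macrophages, 31.9% and 18.7% of endothelial cells, 23.5% and 3.21% of mural cells, and 13.9% and 5.28% of fibroblasts. In glia it was found in 10 of 3320 flox cells (0.301%, 0.145 to 0.553) and 3 of 2230 cKO cells (0.135%, 0.0278 to 0.393). In neurons it was found in 13 of 1564 (0.831%) and 22 of 3043 (0.723%). After thinning 3 flox and 1 cKO glial cells and no neuron of either library held one. Erythroid cells, which should lack these enzymes, had 0 of 62 and 1 of 37 cells with a cyclooxygenase UMI, at medians of 4356 and 2619 UMIs.

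Most cyclooxygenase-positive cells also held a PGE2 synthase UMI, mainly of the broadly expressed Ptges3. A Ptges3 UMI was found in 54.8% of all flox macrophages, 69.9% of endothelial cells, 69.6% of mural cells and 69.1% of fibroblasts. In the cKO library these shares were 54.49%, 66.45%, 52.56% and 58.75%. Joint presence is therefore not read as a link between the enzymes. Counting Ptges, Ptges2 and Ptges3 together, both enzymes were found in 109 flox and 21 cKO macrophages, 44 and 26 endothelial cells, 22 and 4 mural cells, and 153 and 54 fibroblasts. In glia the counts were 7 and 2 cells, and in neurons 13 and 20. With Ptges alone, which is the synthase most restricted to a class, there were 50 flox and 19 cKO fibroblasts (3.92% and 1.498%) and no glial cell in either library. In fibroblasts the product of the single shares is 3.28% and 1.07%, inside the intervals of the shares seen (2.93 to 5.14 and 0.905 to 2.33).

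**Figure D2:**
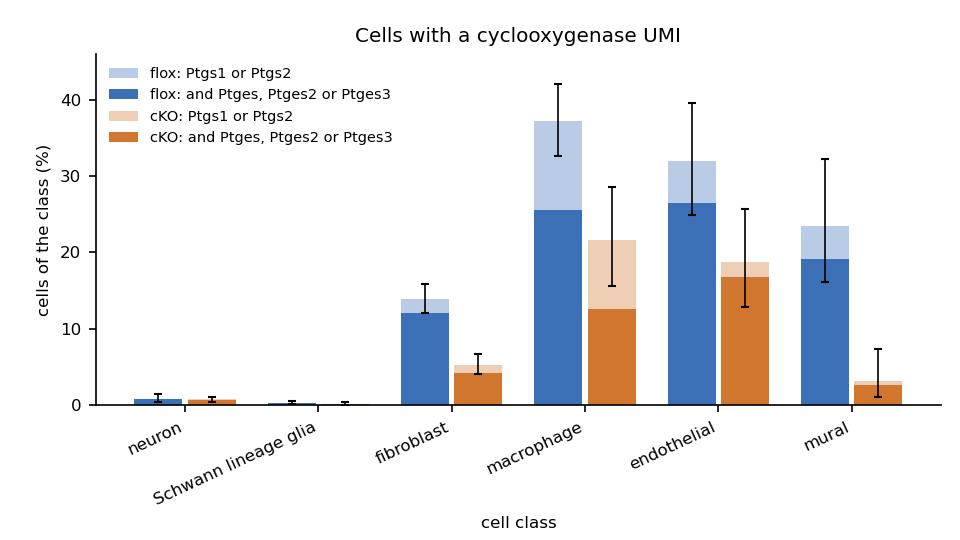
Share of cells of each class (vertical axis, %) with a Ptgs1 or Ptgs2 UMI, whole bar with its exact 95% interval, and with a Ptges, Ptges2 or Ptges3 UMI as well, dark part, flox in blue and cKO in orange. Macrophages reach 37.2% and 21.6%, whereas glia and neurons stay under 1%.

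Of the enzymes that send PGH2 elsewhere, Hpgds (ENSMUSG00000029919, chr6:65117293-65144908, reverse strand), the haematopoietic PGD2 synthase, was a macrophage gene in both libraries and differed little. Macrophages had 233.5 CPM (213.3 to 255.2) and 222.9 CPM (189.3 to 260.7), a ratio of -0.07 (-0.34 to 0.20), with a UMI in 57.1% and 53.3% of cells and 20.4% and 19.8% after thinning. Glia had 0.959 and 2.25 CPM and neurons 0.549 and 1.40 CPM, with a UMI in 2.24% and 1.97% of neurons. Tbxas1 (ENSMUSG00000029925, chr6:38875404-39084585, forward strand), the thromboxane synthase, had the same class, with 69.1 and 55.7 CPM in macrophages, a ratio of -0.31 (-0.86 to 0.21), and macrophages held 88.4% and 90.7% of its UMIs. Its gene span overlaps 3 genes on the other strand, among them Hipk2.

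Ptgis (ENSMUSG00000017969, chr2:167191805-167240604, reverse strand), the prostacyclin synthase, was found in fibroblasts and vessel cells and in neither glia (2 and 2 UMIs) nor neurons at more than 1.04 CPM. Fibroblasts had 63.3 and 64.7 CPM, a ratio of 0.03 (-0.14 to 0.21), led by epineurial fibroblasts at 99.4 and 99.9 CPM and meningeal fibroblasts at 75.8 and 80.3 CPM. Mural cells had 177.9 CPM (150.5 to 208.9) and 18.4 CPM (7.93 to 36.2), a ratio of -3.28 (-4.51 to -2.26), and endothelial cells 58 UMIs and 1 UMI, a ratio of -4.64 (-9.97 to -2.11). The 2 libraries' intervals overlap in fibroblasts and are apart in both vessel classes. In the smooth-muscle-led mural cells it stood at 234.9 and 53.3 CPM, and in the others at 13.9 and 0 CPM. Within the endothelial class brain capillary genes were also lower in the cKO library, at 436.2 and 37.7 CPM. So were smooth muscle markers (196.9 and 60.6 CPM) and fibroblast markers (1157.4 and 436.8 CPM) in the same cells, and the part of each in the Ptgis difference was not tested.

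Ptgds (ENSMUSG00000015090, chr2:25466709-25470046, reverse strand), the lipocalin-type PGD2 synthase of meninges and brain, gave the widest spread over single cells. The flox library held 20227 Ptgds UMIs, of which 24 cells held 89.0%, and the highest cell held 3720. Meningeal fibroblasts stood at 6584.5 CPM in the flox against 503.3 CPM in the cKO library, and all fibroblasts at 1373.2 and 71.9 CPM, a ratio of -4.26. A few cells carried both meningeal values, since 21 of 216 flox cells held 99.6% of the UMIs and 3 of 50 cKO cells held 157 of 163. Meningeal markers in that gate also differed, with Slc6a13 at 844 and 43.2 CPM and Aldh1a2 at 253.5 and 24.7 CPM but Crabp2 at 420.2 and 978.8 CPM, and their part in the Ptgds difference was not tested. In the flox library a Ptgds UMI was found in 11.6% of glia, 11.5% of neurons, 10.8% of endothelial cells, 10.5% of oligodendrocyte lineage cells and 9.68% of erythroid cells. Erythroid cells should lack the gene, so the flox shares of the other classes, all near that level, are read as background. The 74 cKO glia with a UMI were 3.32% of the class, against 1 of 37 erythroid cells (2.70%). The shares of positive glia in both libraries are therefore not read as expression, although the erythroid cells are few. Glia held 3.80% of flox and 5.60% of cKO Ptgds UMIs. Glial cells with at least 10 UMIs each held 1.23% and 2.23%, and the source of those UMIs was not tested.

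In neurons Ptgds stood at 3.86 CPM in the flox against 36.3 CPM in the cKO library, with a ratio of 3.23 (3.04 to 3.43), and a few cells carried it. Of the 1740 cKO neuron UMIs, 89.5% lay in 26 cells with at least 10 UMIs each, whose median depth was 2328.5 UMIs. These 26 cells also held Vtn at 401.5 CPM, Slc6a20a at 121.7 CPM and fibroblast markers at 1375 CPM, against 0.949, 0.331 and 379.2 CPM in neurons without a Ptgds UMI, while neuron markers were at 14820.6 and 16092.4 CPM. The part of other cells' RNA in these 26 was not tested. Among neurons of at least 10000 UMIs the ratio was 0.09, and C-LTMRs had 3.68 and 3.25 CPM.

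**Figure D3:**
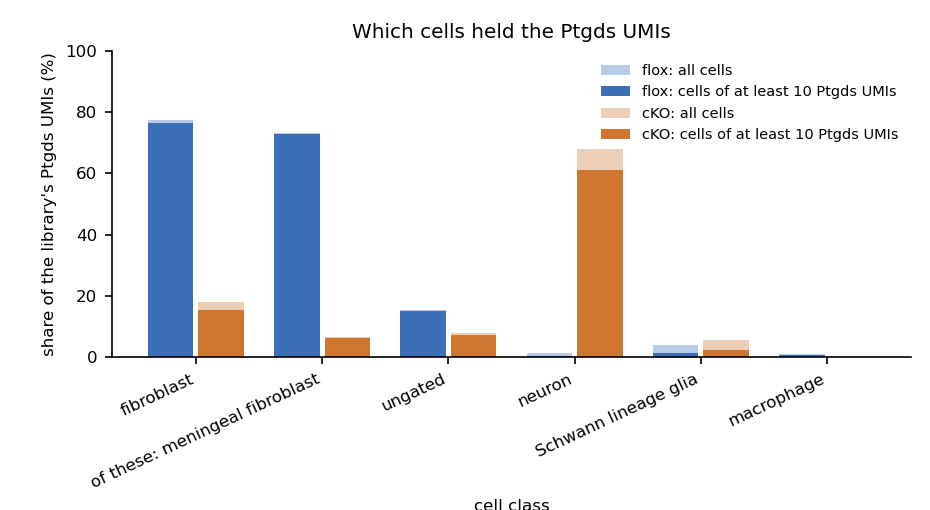
Share of each library's Ptgds UMIs held by each class (vertical axis, %), flox in blue and cKO in orange, with the part in cells of at least 10 Ptgds UMIs in the dark shade. Meningeal fibroblasts, which are part of the fibroblast bar, hold 73.1% of flox UMIs and 6.38% of cKO UMIs, and neurons hold 68.1% of cKO UMIs.

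Hpgd (ENSMUSG00000031613, chr8:56294585-56321043, forward strand), which oxidises PGE2 and so begins its inactivation, was above all a macrophage gene. Macrophages had 347.5 CPM (322.7 to 373.6) in the flox against 230.0 CPM (195.9 to 268.4) in the cKO library, with a ratio of -0.60 (-0.85 to -0.35). A UMI was found in 67.0% and 44.3% of macrophages, and in 32.1% and 19.8% after thinning, against 3.45% and 2.53% of the deeper neurons. Microglia-gated cells had 407.5 and 269.9 CPM, and they were 132 of the flox but 29 of the cKO macrophages. A cyclooxygenase UMI and an Hpgd UMI met in 119 flox and 18 cKO macrophages.

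Outside macrophages Hpgd was low. Satellite glia had 11.1 and 9.26 CPM, glia overall 4.66 and 3.67 CPM with a UMI in 1.08% and 0.448% of cells, and neurons 1.11 and 1.86 CPM. A single immature Schwann cell held 20 of the 107 flox glial UMIs. Within neurons the Mrgpra3 subtype had 5.66 and 5.22 CPM with a UMI in 17.9% and 6.83% of cells, the highest level of the neuron groups in both libraries. Macrophages held 71.8% of flox and 51.8% of cKO Hpgd UMIs, and neurons 7.39% and 28.6%, the cKO library having fewer macrophages and more neurons.

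**Figure D4:**
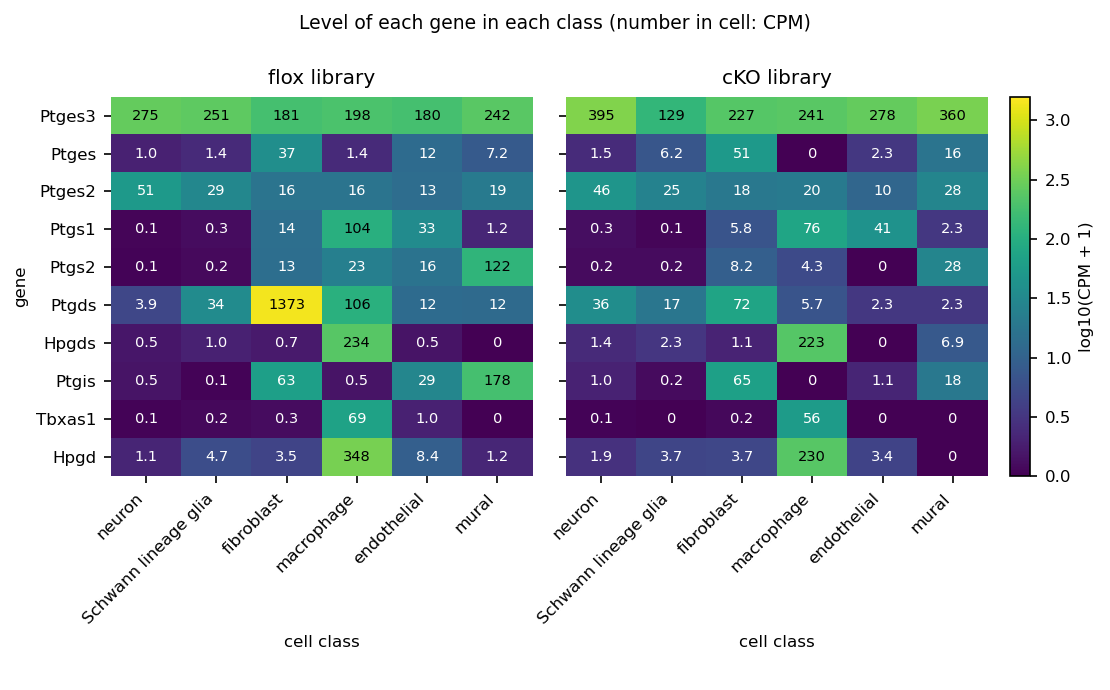
Level of each of the 10 genes (rows) in 6 classes (columns) of the flox and the cKO library, coloured by log10(CPM + 1) with the CPM printed in each cell. Ptges3 and Ptges2 have values in every column, while Ptgs1, Hpgds, Tbxas1 and Hpgd stand out in macrophages, Ptges and Ptgds in fibroblasts, and Ptgs2 and Ptgis in mural cells of the flox library.

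Read against all genes, the members were not uniformly shifted. Only genes with 50 or more UMIs in a class, libraries summed, were measured, and a gene counted as higher or lower in the cKO library at 0.5 log2 or more. In glia 5 of the 10 members were measured, with Ptges higher and Ptges3 and Ptgds lower, while 27.8% of the 12109 genes measured passed in either direction, 13.4% higher and 14.4% lower. The glial Ptgds UMIs, counted here by the rule, came with the shares of positive cells not read as expression above. Ptges is counted on the ratio of all glia, and its interval within satellite glia ran from -0.07 to 1.68. Within myelinating Schwann cells, on 4 and 13 UMIs, it ran from 2.16 to 5.92. In neurons 7 were measured and 6 were higher (Ptges3, Ptges, Ptgds, Hpgds, Ptgis and Hpgd), while 13.7% of 14940 genes passed, 9.12% being higher and 4.53% lower. Of these 6, all but Ptges3 were under 4 CPM in flox neurons, and 2 members passed after thinning and 3 in neurons of at least 10000 UMIs.

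In fibroblasts 3 of 8 measured members were lower (Ptgs1, Ptgs2 and Ptgds) and 26.9% of all genes passed, 8.67% higher and 18.2% lower. In macrophages 3 of 7 were lower (Ptgs2, Ptgds and Hpgd) and 32.9% of genes passed, 11.8% higher and 21.2% lower. Of the 223 Ptgds UMIs of flox macrophages, 5 cells held 71.75%. In endothelial cells Ptges3 was higher and Ptgis lower of 3 measured, where 44.5% of genes passed, 18.5% higher and 25.9% lower. In mural cells Ptges3 was higher and Ptgs2 and Ptgis were lower of 3 measured, where 42.9% passed, 16.8% higher and 26.1% lower. Over all measured genes the median ratio lay between -0.13 in mural cells and 0.01 in glia. With such shares, a member past 0.5 log2 in a vessel class is not set apart from other genes by that alone.

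**Figure D5:**
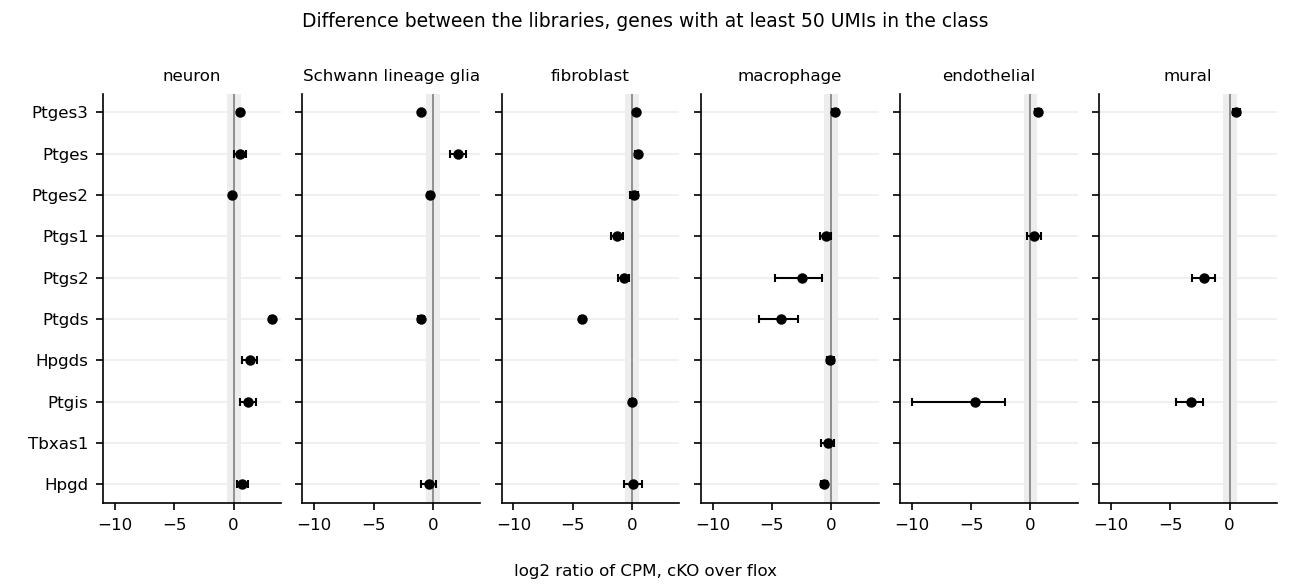
Log2 ratio of CPM, cKO over flox (horizontal axis), with exact 95% intervals for counting error, for each gene with at least 50 UMIs in the class, 1 panel per class. The grey band marks 0.5 log2 to either side of 0, and Ptges3 lies left of it in glia (-0.96) and right of it in neurons (0.52), endothelial cells (0.63) and mural cells (0.57).

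Genes around the members were read from lists of the pathway. Of 13 measured genes that free arachidonic acid, 5 were lower and none higher in glia, with a median of -0.48, against 14.4% of all glial genes lower and a median of 0.01. They included Mgll, the lipase that cleaves the endocannabinoid arachidonoylglycerol (222.2 and 106.1 CPM, a ratio of -1.07), Abhd12, a related hydrolase (103.8 and 55.4 CPM, -0.91), and Plaat3, a phospholipase A (436.8 and 302.9 CPM, -0.53). In neurons 1 of 16 was higher and 3 were lower, where 9.12% and 4.53% of all genes were, among them Pla2g7, a secreted phospholipase that cleaves platelet-activating factor, with 196.5 and 124.7 CPM (-0.66). In macrophages Pla2g7 went the other way, at 191.1 and 301.5 CPM (0.66).

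Of the breakdown and transport list, which holds Hpgd itself, 1 of 7 measured genes was higher and none was lower in glia. That gene was Slco3a1, an anion transporter, at 34.4 and 54.9 CPM (0.67). In macrophages 1 of 5 was higher and 2 were lower, Hpgd and the transporter Slco2b1 (79.1 and 42.9 CPM, -0.88). Slco2a1, the prostaglandin transporter that takes PGE2 up for breakdown, stood in endothelial cells at 80.3 and 72.0 CPM (-0.16). The reductases that lead to PGF2alpha had 2 of 6 measured genes lower in glia and none changed by 0.5 log2 in neurons. Glutathione S-transferases had 1 of 8 higher and 2 lower in glia, and the leukotriene arm 1 of 4 lower in macrophages, Ltc4s, at 367.5 and 221.4 CPM. Of all measured genes 13.4% were higher and 14.4% lower in glia, 11.8% and 21.2% in macrophages, and 9.12% and 4.53% in neurons. Such small counts do not set these lists apart.

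Regulators of the cyclooxygenases were counted in each class, and the classes were not tested against each other. In macrophages 5 of 10 measured genes were lower and none was higher, with a median of -0.41, against 21.2% of all genes lower and a median of -0.11. Among them were Il1b, an inducer of Ptgs2 (240.7 and 85.7 CPM, -1.49), and Zfp36, which destabilises such messages (578.2 and 238.6 CPM, -1.28). In glia 2 of 8 were higher and 2 lower, against 13.4% and 14.4% of all genes, where Zfp36 was lower (142.9 and 72.6 CPM, -0.98) and Cebpb, a transcription factor of inflammatory genes, was higher (119.6 and 216.2 CPM, 0.85). In neurons 5 of 10 were higher and none was lower, with a median of 0.46, against 9.12% of all genes higher and a median of -0.02. In fibroblasts Anxa1, an inhibitor of phospholipase A2 action, was higher at 320 and 476.3 CPM (0.57).

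The HSP90 partners of p23 were read as well, since both roles are described for the product of Ptges3. In glia 3 of 10 measured genes were higher and none was lower, with a median of 0.16, against 13.4% of all genes higher, so this small count does not set the list apart. Hsp90aa1, the inducible cytosolic HSP90, was higher in glia (585.3 and 1103.6 CPM, 0.92) and also in fibroblasts, macrophages, endothelial and mural cells (526.6 and 1843.4 CPM in the last), classes in which Ptges3 was not lower. In neurons it was at 1398.2 and 1184.6 CPM (-0.24). Hsp90ab1, the constitutive form, was at 2661.3 and 2663.9 CPM in glia (0.00), and Fkbp5, a cochaperone of steroid receptors, at 5.84 and 12.1 CPM (1.05).

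Over the 6 main classes in both libraries, 12 points, the genes closest to each member in level were found by Pearson correlation of log2(CPM + 10) among 11967 genes, as a description. For Ptges they were Foxd2os and Ccl11 (both 0.97), Fbn1, Fbn2 and Twist1, which are genes of fibroblasts, and for Ptgs1 Srgn (0.98), Vsir, Gpx1, Cd38 and H2-K1. For Hpgd they were Ltc4s (1.00), Fcgr1, Pld4, Folr2 and Ms4a6b, and for Hpgds Cfp (0.99), Cd74, Adgre1, Gpr34 and C3ar1. Ptgis was closest to Ltbp1 (0.98), Ptges2 to Xkr4 (0.96) and Ptgds to Cldn11 (0.89). For Ptges3 the closest, Afg3l2, reached 0.77, so no gene had nearly its pattern of low cKO glia. The points share libraries and depth, and 1 or 2 classes set most of these patterns.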

How the data were processed

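The deposited matrices hold raw UMI counts per gene and barcode, 10014 flox and 9703 cKO barcodes with 132620886 and 78144437 UMIs, and no other columns were left unused (0). The counts were made with cellranger 6.1.2 per the file headers, while the submitters' processing notes name Cell Ranger 5.0.1, Scanpy and mm10. How intronic reads, free RNA and doublets were handled upstream: not given in the sources used here.

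Barcodes needed 1000 UMIs, 500 genes and no more than 15% mitochondrial UMIs. Doublets were taken out by score at a set rate of 0.8% for each 1000 cells, 607 in the flox and 569 in the cKO library, and not by a caller's own threshold. A cell joined a class with a marker score of at least 0.2, at least 3 markers and a score 1.3 times the next class, and sub-gates used 0.15, 2 and 1.2. UMIs were summed per class and library and divided by the class total. Intervals are exact Poisson for levels, Clopper-Pearson for shares and conditional binomial for ratios. No test was made, since there is 1 library per genotype, and depth sets the precision. The intervals were checked on simulated Poisson counts, the model that they assume. That check does not cover genes whose UMIs lie in a few cells.

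Alternatives were edgeR 4.0.16 TMM factors (R 4.3.3), the mean of each cell's CPM, thinning, other filters and gates, no doublet removal and Leiden clusters (resolution 1.0, scanpy 1.11.5). Positions are from GENCODE M21 on GRCm38. Python 3.11.15, numpy 2.4.6, scipy 1.17.1 and pandas 2.3.3 were used.

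The members and all lists were chosen with earlier results of these data known. The named genes were the 10 members in every class with at least 50 cells. Of each pathway list they were the 3 highest genes in a class and the 2 highest and 2 lowest ratios with at least 100 UMIs. For each member with at least 500 UMIs they were the 5 genes closest in level.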

Additional observations from a re-analysis of the deposited data

Results flagged for a closer look

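For 2 genes the log2 ratio of cKO over flox had opposite signs in Schwann lineage glia and neurons. Ptges3 had -0.96 in glia and 0.52 in neurons, and Ptgds had -0.98 in glia and 3.23 in neurons. With 1 library per genotype the difference between the classes was not tested. For Ptgds the glial levels, 33.5 and 16.9 CPM, came with shares of positive cells near those of erythroid cells, and 26 cells held most of the neuronal UMIs of the cKO library.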

How the results depend on the processing

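No paired analysis was possible because there is 1 library per genotype and no test. The ratio of Ptges3 in glia (-0.96) was -1.11 after thinning to 1000 UMIs and -1.20 without the clusters nearly all of a single library (3853 flox and 453 cKO cells, an alternative added once the data had been seen). In neurons it (0.52) was 0.62 as a mean of each cell's CPM, 0.70 thinned, 0.48 in neurons of at least 10000 UMIs and 0.55 as a mean over subtypes. Members past 0.5 log2 numbered 6 in glia without a UMI minimum (3 with it), and 2 thinned and 3 in deep neurons (6 with all neurons). The share of flox glia with a cyclooxygenase UMI fell from 0.301% to 0.0904% thinned, and that of neurons was 0 thinned in both libraries and 1.11% in deep cKO neurons. Ptges2 in neurons changed sign, from -0.16 to 0.16 thinned. Of the other values for single genes, 239 of 267 moved by less than their interval and 27 moved further. The order of classes and the signs of the measured ratios changed little, with 30 of 33 signs kept under the mean of each cell's CPM. TMM factors shifted log2 ratios by -0.06 to 0.09. Low depth in cKO cells and small macrophage, endothelial and mural classes limit every low count, and without replicate libraries no difference can be assigned to the genotype.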
